A study of Mus musculus with 16 samples.

Results

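The genes described here are 39 members of hepatic glucose and glycogen metabolism, found by their symbols among the 55487 gene rows of the deposited liver tables. They were sorted into 12 glucose-producing members, 17 glucose-using members and 10 glycogen members. The glucose-using class includes 7 members of the reversible steps, which both routes share, and the lactate step. It also includes 3 kinases that hold back pyruvate oxidation, so its counts do not measure glucose use. All 39 had enough reads to be tested, and they took between 1.08% and 1.62% of the counts of a library. Poly(A)-selected RNA from whole liver was sequenced from mice on a high-fat diet in a study of spliced forms of JNK (c-Jun N-terminal kinase, a stress-activated protein kinase), and the 16 libraries fall into 3 groups. The Flpo group (6 libraries) is the one the design calls LJ1J27b. The Cre group (5 libraries) is the one it calls LJ1J27a. The GFP group (5 libraries) is its control, LJ1J2control. All 3 groups carry the same listed genotype, J1 J2 lf/lf, on the C57/Bl6J strain. Age, sex, time on the diet and the way GFP, Cre (a site-specific recombinase) and Flpo (another recombinase) were brought into the liver are not stated in the labels. The design names hepatocytes as the altered cells, while the RNA is from all cells of the liver. The labels do not say that each library is a separate mouse. The p-values therefore set group differences against the spread between libraries, which may be partly technical and need not be the spread between mice. Gene-level counts do not separate spliced forms, so the labels could not be checked against the JNK genes themselves.

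The liver takes up glucose when it is plentiful, burns it through glycolysis or stores it as glycogen, and makes new glucose from lactate, amino acids and glycerol during fasting. The opposing routes share their reversible steps and differ at a few one-way steps, each with its own enzyme. Insulin and glucose raise transcription of several enzymes of the glucose-using route, while glucagon, through cyclic AMP, and glucocorticoids raise that of the glucose-producing route.

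Library totals ran from 27929393 to 36043322 estimated counts, with 17067 to 18257 genes above 0. Hepatocyte markers, 7 of the 8 listed being in the tables, summed to 85609.6 to 104278 CPM (counts scaled to a common library total) in Flpo livers, 98291 to 123593 CPM in Cre livers and 84841 to 109625 CPM in GFP livers. Of the 7, 2 rose and 2 fell in Cre against GFP, and 0 rose and 3 fell in Flpo against Cre. Endothelial markers (6) summed to 56.2 to 101 CPM in Flpo livers, 90.2 to 108 CPM in Cre livers and 68.1 to 94.8 CPM in GFP livers, with 1 higher in Cre against GFP and 1 lower in Flpo against Cre, while fat and muscle markers stayed under 1 CPM in all libraries. Of 8 stellate cell markers, 0 rose and 4 fell in Cre against GFP, and their sum was 107 to 194 CPM in Cre livers and 170.3 to 279 CPM in GFP livers, with no marker at 0 in all libraries. In Flpo against Cre 5 of the 8 rose and 0 fell, with a sum of 189.8 to 303 CPM in Flpo livers. In whole liver, fewer cells of a type and less RNA per cell cannot be told apart, and the part of these shifts in the results below was not tested. A score made from 18 core clock genes, the first principal component with 73.8% of their variance, was 0.616 to 4.78 in Flpo livers, -5.59 to -0.594 in Cre livers and -2.51 to 3.04 in GFP livers. Its values in Flpo and Cre livers did not overlap, so clock state and group cannot be told apart between them. With library totals alone as the scale, the all-gene median was -0.14 (log2) in Cre against GFP and 0.13 in Flpo against Cre, where the main scaling gave 0.00 in both. The changes below are relative to the main scaling, in which CPM are adjusted for library composition.

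Compared with GFP livers, Cre livers had higher transcripts of Pck1 and Got1 on the glucose-producing side and of Ldha at the lactate step. They had lower transcripts of 4 glycogen members and of 7 members sorted as glucose-using. These 7 include Pdk1 and Pdk2, kinases that hold back pyruvate oxidation. They also include Gckr, a regulator of glucose phosphorylation, and Khk, which acts on fructose, so the 7 falls are no measure of less glucose use. Calls are made at an adjusted p under 0.05 in edgeR's quasi-likelihood test with Benjamini-Hochberg adjustment over the 13905 genes tested. Of the 39 members, 3 rose and 11 fell (35.9% called), where 9.55% of all genes were called (3.97% higher and 5.58% lower). The members and the other lists below were chosen with earlier results of these data known. Their shares called, here and below, are therefore no test against the share of all genes. By class, 2 of 12 glucose-producing members rose and 0 fell, 1 of 17 glucose-using members rose and 7 fell, and 0 of 10 glycogen members rose and 4 fell. The count of glucose-producing members that fell was 3 with library totals and on both TPM scales, and 2 by DESeq2. Over the 39 members the median log2 fold change was -0.12, and 0.25, -0.32 and -0.40 in the glucose-producing, glucose-using and glycogen classes, beside 0.00 over all genes. With library totals as the scale, 3 members rose and 19 fell, and over all genes 300 rose and 1656 fell, against 552 and 776 with the main scaling.

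Flpo livers differed from Cre livers in 21 members (53.8%), where 13.7% of all genes were called (7.45% higher and 6.26% lower). In these livers 17 members rose and 4 fell, with a median log2 fold change of 0.28. The 10 glucose-using members that rose stood beside 2 that fell, 5 glycogen members rose and 0 fell, and 2 glucose-producing members rose and 2 fell. This comparison shares its 5 Cre libraries with the one before, so the 2 sets of calls are not independent. On the log2(TPM + 1) scale with limma, 23 members rose and 2 fell, and over all genes 2417 rose and 326 fell, against 1036 and 870 in the main analysis. Flpo against GFP gave 0 calls among the 39 members by edgeR and 0 by DESeq2, with 4 members at an unadjusted p under 0.05, and 0.0288% of all genes were called.

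**Figure D1:**
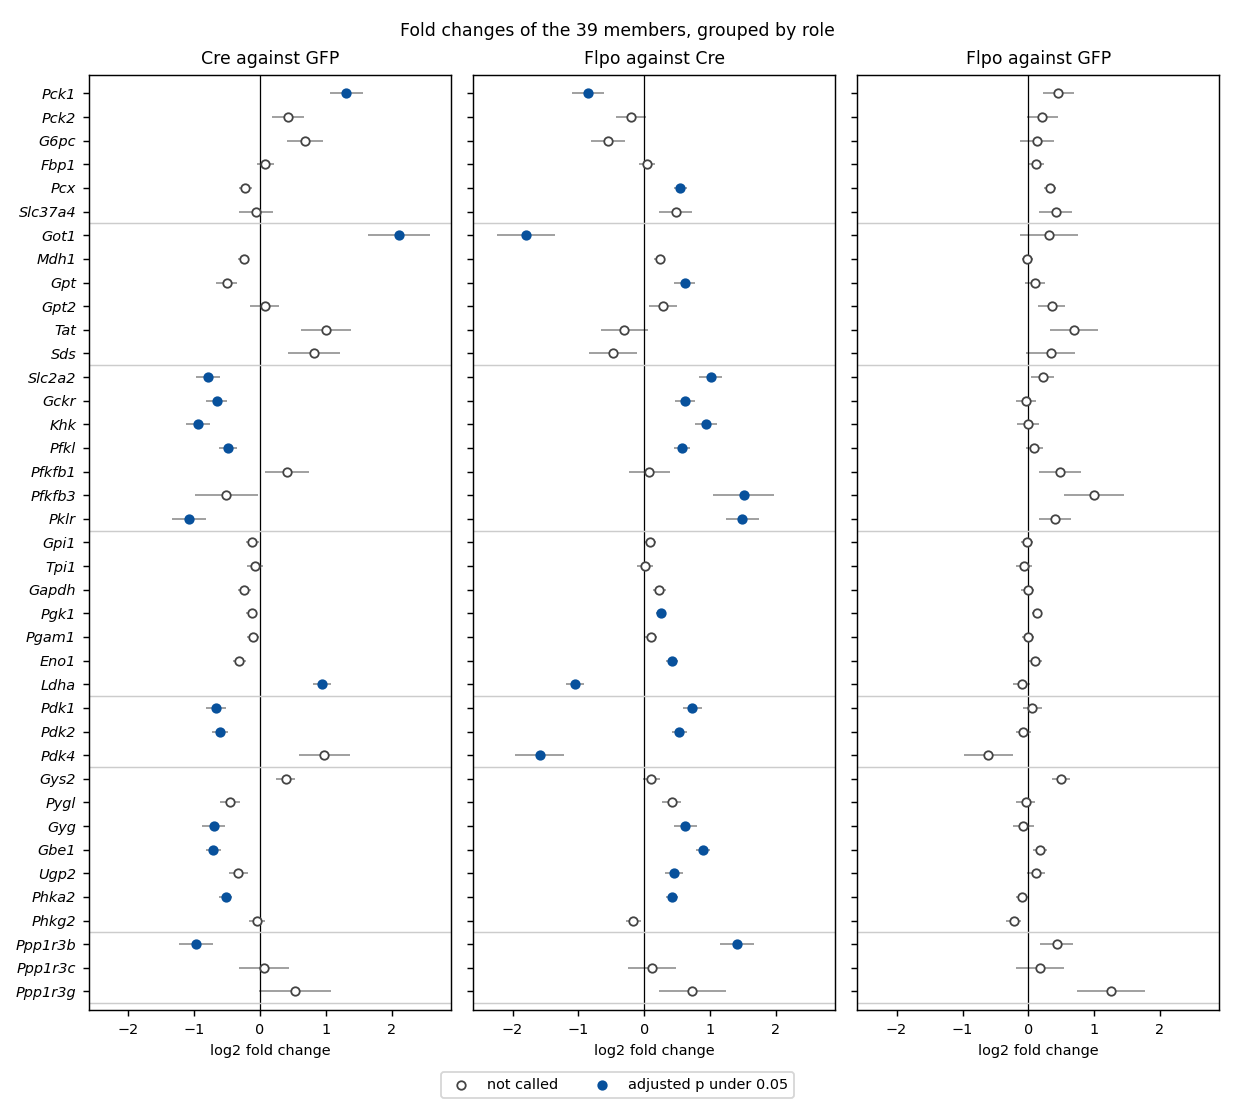
Log2 fold change (horizontal axis, bars are 1 SE) of the 39 members in Cre against GFP (5 and 5 libraries), Flpo against Cre (6 and 5) and Flpo against GFP (6 and 5), grouped by role with grey lines between roles. Filled points passed an adjusted p under 0.05: 14 in Cre against GFP, 21 in Flpo against Cre and 0 in Flpo against GFP.

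The committed steps of glucose production were led by Pck1, the cytosolic phosphoenolpyruvate carboxykinase that starts gluconeogenesis from oxaloacetate and is raised through cyclic AMP. The bases before its transcription start are shown because Pck1 had the largest rise among the committed-step members. They are from RefSeq, build GRCm38.p6, chr2:173152823-173153072, plus strand, 5′ to 3′, and the capitals mark the match to TGACG, part of the cyclic AMP response element, on the opposite strand.
Pck1: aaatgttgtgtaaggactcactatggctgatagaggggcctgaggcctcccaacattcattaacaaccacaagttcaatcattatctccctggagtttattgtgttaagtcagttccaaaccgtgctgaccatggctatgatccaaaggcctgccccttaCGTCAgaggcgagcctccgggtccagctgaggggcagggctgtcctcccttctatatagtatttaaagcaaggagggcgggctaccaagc
GENCODE places Pck1 at 173153048 to 173159273 on chromosome 2. The match lies 86 to 90 bases before the RefSeq start, and 17.8% of 32851 promoter windows of 250 bases hold TGACG on either strand.

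Pck1 had 1327, 1926 and 2445 CPM in Flpo livers (lowest, median and highest of 6, as in all such lists below), 4534, 3119, 3142, 2491 and 3767 CPM in Cre livers (replicates 1 to 5, as below), and 898, 845, 1476, 1285 and 2367 CPM in GFP livers. In CPM every Cre library lay above every Flpo and every GFP library, with the closest approach between Cre 4 and Flpo 6. In TPM, Pck1 in Cre 3 (1194) lay just below Flpo 6 (1202). Pck1 rose 2.48-fold in Cre against GFP (log2 fold change 1.31, SE 0.25, edgeR's adjusted p = 0.00381) and fell by 0.86 on the log2 scale in Flpo against Cre (SE 0.24, edgeR's adjusted p = 0.0241). The Flpo against Cre call for Pck1 was lost without Cre 1 (-0.74, adjusted p = 0.0628) and without Cre 5 (-0.82, adjusted p = 0.051), and also without the low-count filter and on the TPM scale.

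G6pc encodes the catalytic subunit of glucose-6-phosphatase, the last step of glucose release. It had 81.1, 193 and 261 CPM in Flpo livers, 278, 259.9, 265, 141 and 337 CPM in Cre livers, and 144, 211, 143, 124 and 175 CPM in GFP livers. G6pc in Cre 4 lay within the GFP range, while the other Cre libraries lay above it. Its log2 fold change of 0.68 in Cre against GFP (SE 0.27) did not pass the test (edgeR's adjusted p = 0.128), but did without Cre 4 (0.84, adjusted p = 0.0472).

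Fbp1, fructose-1,6-bisphosphatase, had 849, 922 and 979 CPM in Flpo livers, 1246, 769, 763, 686 and 980.0 CPM in Cre livers, and 904, 799, 835, 801 and 873 CPM in GFP livers. The groups overlapped, and Cre libraries lay on both sides of the GFP range. Fbp1 had a log2 fold change of 0.08 in Cre against GFP (SE 0.13, edgeR's adjusted p = 0.770), which had the opposite sign under library totals (-0.07). Pcx, pyruvate carboxylase, which makes oxaloacetate from pyruvate in mitochondria, had 900.3, 997 and 1059 CPM in Flpo livers, 623, 569, 620.0, 745 and 809 CPM in Cre livers, and 848, 784, 796, 769 and 739 CPM in GFP livers. All Flpo libraries lay above all others for Pcx. Pcx rose in Flpo against Cre (0.55, SE 0.09, edgeR's adjusted p = 0.000952), while Flpo against GFP (0.32, adjusted p = 0.296) and Cre against GFP (-0.23, adjusted p = 0.162) did not pass. In Cre against GFP, Pcx passed under library totals (-0.37, adjusted p = 0.0223).

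The 2 other committed-step members, Pck2 (the mitochondrial carboxykinase) and Slc37a4 (the glucose-6-phosphate transporter of the endoplasmic reticulum), passed in 0 of the 3 comparisons by edgeR, with log2 fold changes between -0.21 and 0.48. On the log2(TPM + 1) scale Slc37a4 rose in Flpo against Cre (0.78, limma's adjusted p = 0.0348). Pck2 was scarce, at 1.39 to 3.68 TPM over all libraries, against 408 to 1904 TPM for Pck1. TPM, the authors' length-corrected transcript abundance, is used wherever levels of different genes are compared.

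Members that carry amino-acid carbon or move oxaloacetate equivalents between compartments were led by Got1, the cytosolic aspartate aminotransferase. Got1 had 85.5, 109 and 136 CPM in Flpo livers, 725, 131, 199, 98.2 and 721 CPM in Cre livers, and 107, 89.1, 77.2, 73.3 and 87.4 CPM in GFP livers. Cre 1 and Cre 5 stood far above the other Cre libraries, and Cre 4 lay inside the GFP range. Got1 rose in Cre against GFP (2.11, SE 0.48, edgeR's adjusted p = 0.0125) and fell by 1.80 on the log2 scale in Flpo against Cre (SE 0.44, edgeR's adjusted p = 0.0143). Without Cre 1 or without Cre 5 the rise over GFP was 1.73, with adjusted p of 0.0285 and 0.0314. On the log2(TPM + 1) scale Got1 gave 1.43 in Cre against GFP (limma's adjusted p = 0.0409) and -1.11 in Flpo against Cre (adjusted p = 0.081).

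Gpt, alanine aminotransferase, which turns alanine into pyruvate, had 254, 314 and 355 CPM in Flpo livers, 276, 146, 160.0, 190.5 and 244 CPM in Cre livers, and 257, 256, 332, 253 and 348 CPM in GFP livers. Cre 2, 3 and 4 were the lowest libraries, and Cre 1 lay within the GFP range. Gpt rose in Flpo against Cre (0.61, SE 0.15, edgeR's adjusted p = 0.0132). Its log2 fold change of -0.51 in Cre against GFP missed the threshold (adjusted p = 0.0532) and passed it without Cre 1 (-0.64, adjusted p = 0.0156) or without Cre 5 (-0.58, adjusted p = 0.0414). Gpt also passed there by DESeq2 (-0.50, adjusted p = 0.0283), with library totals (-0.65, adjusted p = 0.0104) and on the TPM scales. The other 4 members of this role passed in 0 of the 3 comparisons by edgeR. They were Mdh1 (cytosolic malate dehydrogenase), Gpt2 (a second alanine aminotransferase), Tat (tyrosine aminotransferase) and Sds (serine dehydratase). In Cre against GFP their log2 fold changes were -0.25, 0.07, 1.0 and 0.82, and Tat ranged from 478 to 2296 CPM over the 5 Cre libraries, against 356 to 887 CPM over the 5 GFP libraries. Mdh1 passed in Cre against GFP by DESeq2 (-0.24, adjusted p = 0.0286) and with library totals (-0.39, adjusted p = 0.00606), and in Flpo against Cre by both (0.23, adjusted p = 0.0255, and 0.37, adjusted p = 0.00528).

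**Figure D2:**
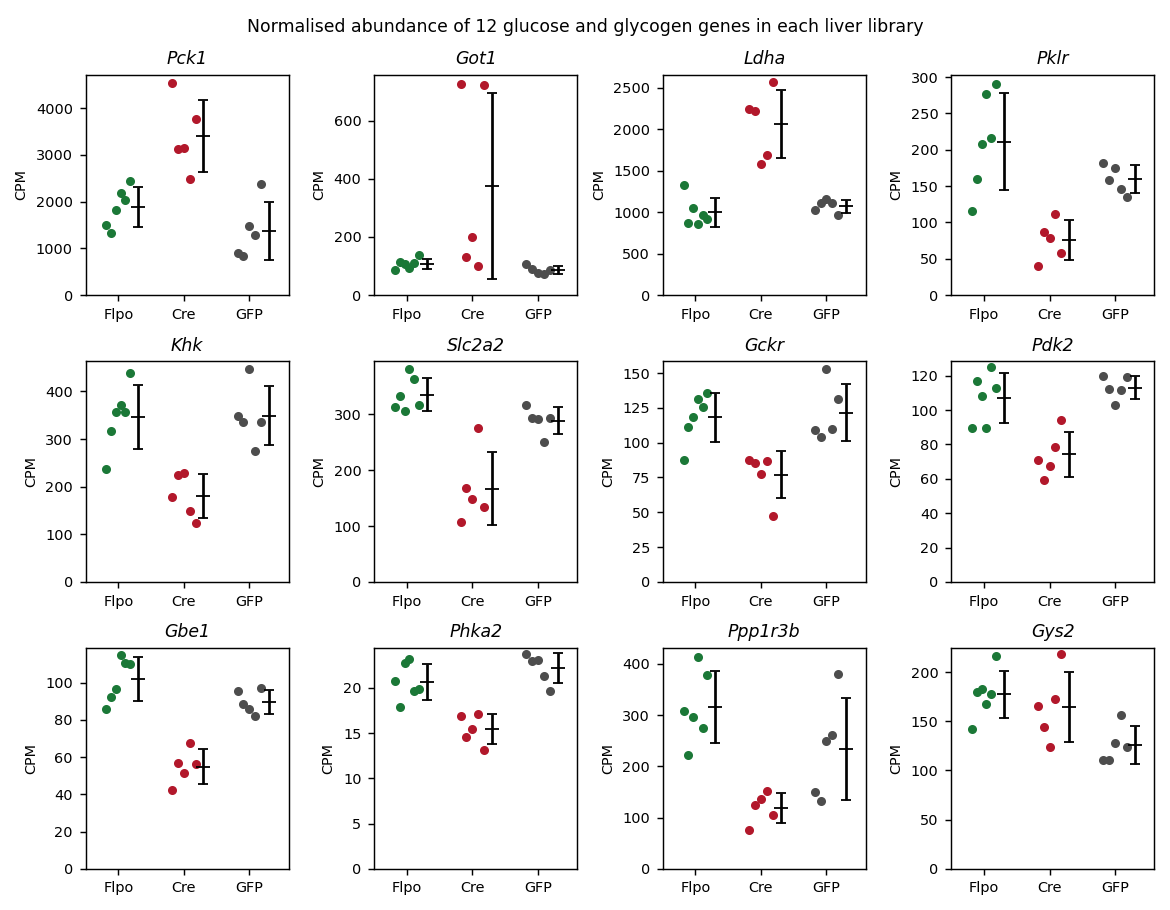
CPM (vertical axes, each from 0) of 12 members in every library of the Flpo (n = 6), Cre (n = 5) and GFP (n = 5) groups; the bars beside the points are the mean and 1 SD. Pck1 and Ldha were higher in all 5 Cre libraries than in any other, and Got1 was at 725 and 721 CPM in 2 of the 5. Khk, Pklr, Gbe1 and Phka2 were lower in all 5 Cre libraries than in any other.

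Among members of glucose entry and regulation, 5 of 7 fell in Cre against GFP and 6 of 7 rose in Flpo against Cre. In either comparison 0 were called the other way. Of all genes, 5.58% were called lower in Cre against GFP and 7.45% higher in Flpo against Cre. Pklr, the liver pyruvate kinase of the last, one-way step of glycolysis, had the largest fall of the 39 members in Cre against GFP. The bases before one of its RefSeq starts are shown because Pklr is a classical target of carbohydrate-responsive transcription through a paired E-box element. They are from RefSeq, build GRCm38.p6, chr3:89136373-89136622, plus strand, 5′ to 3′, and the capitals mark CACGGG and CCCGTG with 5 bases between them, a motif added after this sequence had been read.
Pklr: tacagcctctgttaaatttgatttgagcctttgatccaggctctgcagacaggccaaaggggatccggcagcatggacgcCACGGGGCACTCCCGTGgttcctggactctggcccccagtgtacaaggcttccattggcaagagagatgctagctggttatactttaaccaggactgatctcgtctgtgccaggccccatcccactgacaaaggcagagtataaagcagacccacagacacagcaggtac
The match lies 154 to 170 bases before the start. Of 32851 windows 1 held it (0.00304%), the window it was read from. The window lies inside the span that the GENCODE annotation of the same build gives for Pklr, 89136142 to 89146784 on chromosome 3, plus strand, so an earlier start is annotated too.

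Pklr had 115, 212 and 291 CPM in Flpo livers, 40.0, 86.6, 78.7, 112 and 58.3 CPM in Cre livers, and 182, 159, 175, 146 and 136 CPM in GFP livers. The highest Cre library, Cre 4, lay just below the lowest Flpo library and below the whole GFP range. Pklr fell 2.12-fold in Cre against GFP (log2 fold change -1.08, SE 0.26, edgeR's adjusted p = 0.0137) and rose 2.81-fold in Flpo against Cre (1.49, SE 0.25, edgeR's adjusted p = 0.00101).

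Khk, ketohexokinase, which phosphorylates fructose, had the second largest fall of this role in Cre against GFP. Its promoter is shown because it holds overlapping matches to TGACG (opposite strand, 70 to 74 bases before the start) and to the E-box CACGTG (66 to 71 bases before it). It is from RefSeq, build GRCm38.p6, chr5:30921309-30921558, plus strand, 5′ to 3′, with both matches in capitals.
Khk: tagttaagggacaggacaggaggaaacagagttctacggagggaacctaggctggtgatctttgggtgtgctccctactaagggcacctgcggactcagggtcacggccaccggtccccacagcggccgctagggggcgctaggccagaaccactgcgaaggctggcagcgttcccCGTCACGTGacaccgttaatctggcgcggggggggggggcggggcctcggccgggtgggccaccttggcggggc
CACGTG was in 6.02% of the 32851 windows. GENCODE places Khk at 30921431 to 30931248 on chromosome 5, so the window straddles its first annotated base.

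Khk had 237, 357 and 439 CPM in Flpo livers, 178, 225, 229, 149.9 and 123 CPM in Cre livers, and 348, 336, 447, 276 and 335 CPM in GFP livers. No Cre library reached the lowest Flpo or GFP library. Khk fell 1.93-fold in Cre against GFP (-0.95, SE 0.18, edgeR's adjusted p = 0.003) and rose 1.92-fold in Flpo against Cre (0.94, SE 0.17, edgeR's adjusted p = 0.00159).

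Slc2a2, the glucose transporter GLUT2 of the hepatocyte membrane, had 307, 325 and 381 CPM in Flpo livers, 107, 169, 149, 277 and 135 CPM in Cre livers, and 316, 293, 292, 249.8 and 294 CPM in GFP livers. Cre 4 lay within the GFP range and the other Cre libraries lay below it. Slc2a2 fell in Cre against GFP (-0.79, SE 0.18, edgeR's adjusted p = 0.00998) and rose in Flpo against Cre (1.01, SE 0.17, edgeR's adjusted p = 0.00102). Gckr, a nuclear regulator of hepatic glucose phosphorylation, had 87.5, 122 and 136 CPM in Flpo livers, 87.7, 85.7, 77.2, 87.1 and 47.6 CPM in Cre livers, and 109, 104, 153, 110.0 and 131 CPM in GFP livers. Cre livers were all below GFP livers for Gckr, and Cre 5 was the lowest. Gckr fell in Cre against GFP (-0.66, SE 0.16, edgeR's adjusted p = 0.0142) and rose in Flpo against Cre (0.62, SE 0.15, edgeR's adjusted p = 0.0115).

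Pfkl, the liver phosphofructokinase subunit of the committed step of glycolysis, had 35.0, 43.0 and 47.9 CPM in Flpo livers, 34.2, 31.7, 30.4, 28.4 and 19.4 CPM in Cre livers, and 35.3, 36, 47.4, 42.2 and 40.9 CPM in GFP livers. All Cre libraries were below all others, by a narrow margin for Cre 1. Pfkl fell in Cre against GFP (-0.48, SE 0.13, edgeR's adjusted p = 0.0275) and rose in Flpo against Cre (0.57, SE 0.13, adjusted p = 0.00587). The fall of Pfkl against GFP did not pass without GFP 3 (-0.42, adjusted p = 0.0684), GFP 4 (-0.45, adjusted p = 0.0651) or GFP 5 (-0.48, adjusted p = 0.0547), nor with the Cre and GFP groups fitted alone (-0.48, adjusted p = 0.0678).

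Pfkfb3, a bifunctional enzyme that mostly makes the phosphofructokinase activator fructose-2,6-bisphosphate, had 9.55, 19.2 and 30.5 CPM in Flpo livers, 3.04, 9.73, 6.94, 8.69 and 4.79 CPM in Cre livers, and 3.90, 2.97, 12, 8.86 and 19.7 CPM in GFP livers. The groups overlapped, and GFP libraries spread most relative to their mean (coefficient of variation 71.7%, against 42.0% in Flpo and 41.4% in Cre livers). Pfkfb3 rose in Flpo against Cre (1.51, SE 0.46, edgeR's adjusted p = 0.0423), a call lost without any one of GFP 4, Cre 1, Cre 3, Cre 5, Flpo 1, Flpo 3, Flpo 4 or Flpo 6 (adjusted p 0.0557 to 0.0949). Pfkfb1, the liver form of the same bifunctional enzyme, had log2 fold changes of 0.40, 0.08 and 0.48 in Cre against GFP, Flpo against Cre and Flpo against GFP, none of which passed. With the clock score as a covariate, the 5 members of glucose entry called in Cre against GFP kept a negative log2 fold change. It was -1.03 for Khk (SE 0.25, edgeR's adjusted p = 0.0478), -0.86 for Pklr (SE 0.31, adjusted p = 0.186) and -0.57 for Slc2a2 (SE 0.20, adjusted p = 0.17). It was -0.47 for Gckr (SE 0.21, adjusted p = 0.29) and -0.40 for Pfkl (SE 0.18, adjusted p = 0.315).

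Of the 7 members of the reversible steps and the lactate step, 1 was called in Cre against GFP and 3 in Flpo against Cre, where 9.55% and 13.7% of all genes were called. Ldha, the lactate dehydrogenase A subunit that interconverts pyruvate and lactate, was called in both. Its promoter is shown because it holds matches to 2 of the motifs searched: 2 matches to CACGTG and overlapping matches to TGACG on both strands, the last 12 to 5 bases before the start. It is from RefSeq, build GRCm38.p6, chr7:46845554-46845803, plus strand, 5′ to 3′, with the matches in capitals.
Ldha: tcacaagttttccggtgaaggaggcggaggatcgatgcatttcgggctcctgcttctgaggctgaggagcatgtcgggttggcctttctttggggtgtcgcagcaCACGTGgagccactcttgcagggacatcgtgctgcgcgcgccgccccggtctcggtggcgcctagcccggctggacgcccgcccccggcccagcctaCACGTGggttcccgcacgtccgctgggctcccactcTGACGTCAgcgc
GENCODE places Ldha at 46841475 to 46855627 on chromosome 7, so this window too lies inside the annotated gene. Of the 39 members, 35 matched RefSeq promoters in 49 windows. TGACG was found in 10 of the 49 windows, from 7 members, beside 17.8% of all windows. CACGTG was found in 6 of the 49, from 6 members, beside 6.02% of all windows. TGTTTAC, a forkhead factor motif held by 3.17% of all windows, was found in 0.

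Ldha had 857, 941 and 1326 CPM in Flpo livers, 2247, 2213, 1582, 1690.3 and 2570.2 CPM in Cre livers, and 1026, 1106, 1156, 1103 and 963 CPM in GFP livers. In CPM all 5 Cre libraries lay above all others. Ldha rose 1.92-fold in Cre against GFP (0.94, SE 0.14, edgeR's adjusted p = 0.000422) and fell 2.07-fold in Flpo against Cre (-1.05, SE 0.13, edgeR's adjusted p = 6.82e-05). It was 1119 to 1994 TPM in Cre livers, 747 to 1224 TPM in Flpo livers and 817 to 1041 TPM in GFP livers. In TPM, Cre 3 lay below Flpo 1. Ldha was the second most abundant member after Gapdh by mean TPM.

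Eno1, enolase, had 478, 579 and 639 CPM in Flpo livers, 429.8, 377, 385, 435 and 525 CPM in Cre livers, and 528, 513, 569.9, 530.5 and 539 CPM in GFP livers. Cre 5 lay within the GFP range and the other Cre libraries lay below it. Eno1 rose in Flpo against Cre (0.42, SE 0.10, edgeR's adjusted p = 0.00691). In Cre against GFP Eno1 missed the threshold (-0.32, adjusted p = 0.0528) and passed it without Cre 5 (-0.40, adjusted p = 0.013) or without Flpo 1 (-0.30, adjusted p = 0.0475). It also passed by DESeq2 (-0.31, adjusted p = 0.0286), with library totals (-0.46, adjusted p = 0.00615) and on the TPM scales.

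Pgk1, phosphoglycerate kinase, had 259, 292 and 314 CPM in Flpo livers, 271, 226, 233, 223 and 253 CPM in Cre livers, and 276, 238, 272, 254 and 276 CPM in GFP livers. Flpo livers were mostly above Cre livers, with overlap at Cre 1. Pgk1 rose by 0.25 on the log2 scale in Flpo against Cre (SE 0.08, edgeR's adjusted p = 0.0411). That call was lost without any one of GFP 1, GFP 2, GFP 4, Cre 2, Cre 3, Cre 4, Flpo 2, Flpo 3, Flpo 4, Flpo 5 or Flpo 6, with adjusted p of Pgk1 from 0.0504 to 0.123. The other 4 members of the shared steps were Gpi1, Tpi1, Gapdh and Pgam1, with log2 fold changes between -0.24 and 0.23 in the 3 comparisons and 0 calls by edgeR with the main scaling. Gapdh passed with library totals in Cre against GFP (-0.39, adjusted p = 0.00997) and in Flpo against Cre (0.37, adjusted p = 0.00869). On the log2(TPM + 1) scale Gapdh passed in the same comparisons (-0.43, limma's adjusted p = 0.00497, and 0.44, adjusted p = 0.00234). Gpi1 (0.29, limma's adjusted p = 0.0402) and Pgam1 (0.32, adjusted p = 0.0291) passed on that scale in Flpo against Cre. Only pseudogene copies whose symbols carry the member's name were counted, and copies under other names were not searched. Up to 6.57% of the counts of Pgam1 and its copies so named were assigned to a copy. For Gapdh, Eno1, Ldha and Pgk1 that share was at most 0.0598%.

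The pyruvate dehydrogenase kinases switch off the complex that passes pyruvate into the citric acid cycle, and the 3 members did not move alike. Pdk1 had 56.7, 64.6 and 76.4 CPM in Flpo livers, 35.0, 33.9, 37.5, 59.7 and 31.2 CPM in Cre livers, and 71.5, 67.9, 52.8, 54.3 and 67.9 CPM in GFP livers. Cre 4 alone of the Cre libraries reached the GFP range. Pdk1 fell in Cre against GFP (-0.67, SE 0.15, edgeR's adjusted p = 0.00996) and rose in Flpo against Cre (0.73, SE 0.15, adjusted p = 0.0028). Pdk2 had 89.7, 111 and 125 CPM in Flpo livers, 71.2, 59.1, 67.4, 78.6 and 94.5 CPM in Cre livers, and 119.8, 112, 103, 112 and 119 CPM in GFP livers. All Cre libraries lay below all GFP libraries for Pdk2. Pdk2 fell in Cre against GFP (-0.61, SE 0.12, edgeR's adjusted p = 0.00368) and rose in Flpo against Cre (0.53, SE 0.11, adjusted p = 0.00486).

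Pdk4, the kinase typically raised by fasting and fat oxidation, had 4.58, 6.76 and 10.3 CPM in Flpo livers, 12, 22.6, 14.8, 20.5 and 39.1 CPM in Cre livers, and 17.1, 17.0, 3.76, 11.4 and 6.06 CPM in GFP livers. Flpo and Cre livers did not overlap in CPM, and GFP livers spread across both. In TPM, Pdk4 in Cre 1 (4.02) lay just below Flpo 6 (4.05). Pdk4 fell in Flpo against Cre (-1.58, SE 0.37, edgeR's adjusted p = 0.00963). In Cre against GFP its log2 fold change of 0.98 (SE 0.39) did not pass by edgeR (adjusted p = 0.129) and passed by DESeq2 (0.99, adjusted p = 0.0481). In Cre against GFP with the clock score as a covariate, the log2 fold change was -0.50 for Pdk1 (SE 0.18, edgeR's adjusted p = 0.176) and -0.45 for Pdk2 (SE 0.15, adjusted p = 0.131).

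**Figure D3:**
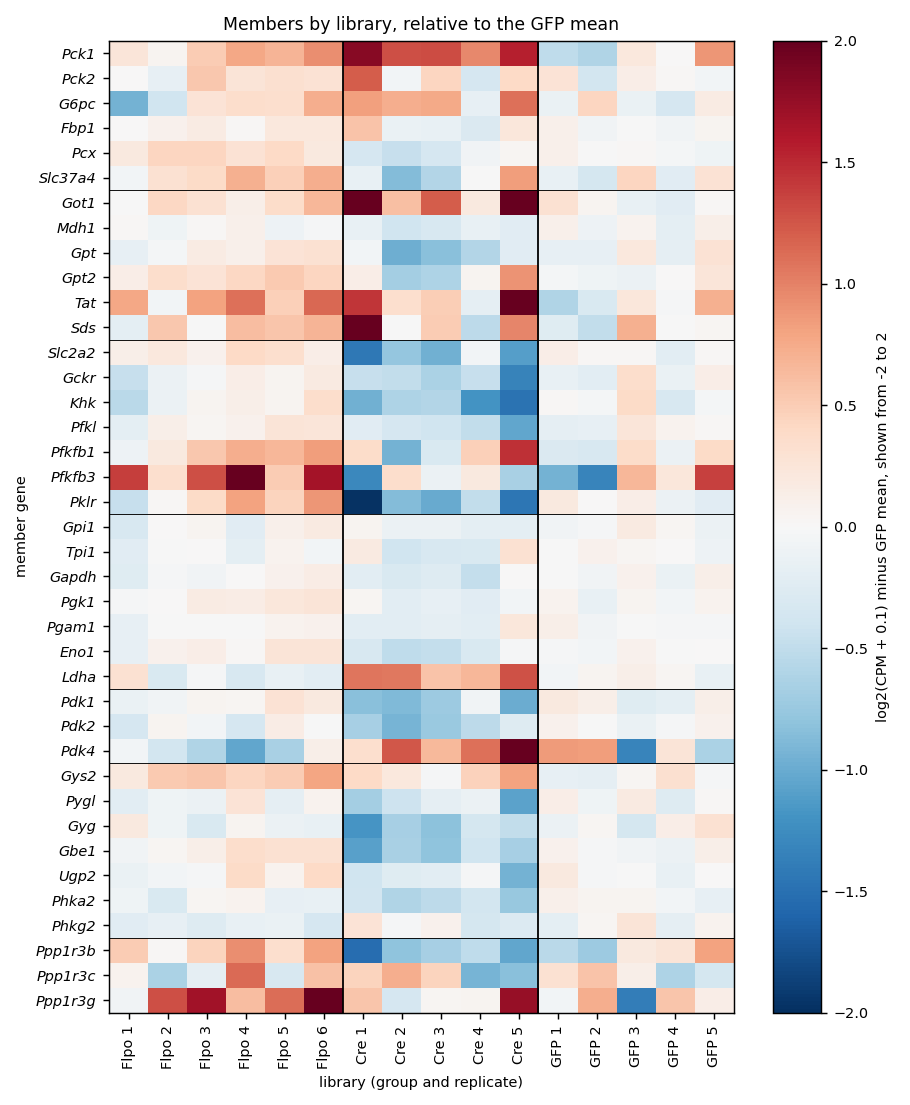
Log2(CPM + 0.1) of each member minus its mean in the 5 GFP livers, shown from -2 (blue) to 2 (red), by library (columns) and by member in role order (rows, black lines between roles). The 5 Cre columns are red at Pck1 and Ldha and blue at Khk, Pklr, Gbe1 and Phka2, and Cre 4 is the palest of them for most called members.

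Glycogen enzymes were lower in Cre than in GFP livers where they were called, in 3 of 7 cases, beside 5.58% of all genes. The synthase and the phosphorylase themselves were not called in the 3 comparisons by edgeR with the main scaling. Gbe1, the branching enzyme, had 85.7, 103 and 115 CPM in Flpo livers, 42.3, 56.8, 51.2, 67.8 and 56.3 CPM in Cre livers, and 95.3, 88.5, 85.6, 82.2 and 97.2 CPM in GFP livers. All Cre libraries lay below all others. Gbe1 fell 1.63-fold in Cre against GFP (-0.71, SE 0.11, edgeR's adjusted p = 0.000747) and rose 1.85-fold in Flpo against Cre (0.89, SE 0.11, edgeR's adjusted p = 5.33e-05).

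Phka2, the liver regulatory alpha subunit of phosphorylase kinase, which activates the phosphorylase, had 17.9, 20.3 and 23.2 CPM in Flpo livers, 16.9, 14.6, 15.4, 17.1 and 13.1 CPM in Cre livers, and 23.8, 23, 23.1, 21.4 and 19.7 CPM in GFP livers. All Cre libraries lay below all others here too in CPM, while in TPM Cre 4 (5.95) lay just above Flpo 2 (5.90). Phka2 fell in Cre against GFP (-0.52, SE 0.10, edgeR's adjusted p = 0.0031) and rose in Flpo against Cre (0.42, SE 0.10, edgeR's adjusted p = 0.00684). Gyg, glycogenin, the protein that primes a new glycogen particle, had 4.38, 5.07 and 6.27 CPM in Flpo livers, 2.36, 3.41, 3.06, 4.27 and 3.85 CPM in Cre livers, and 5.04, 5.60, 4.24, 6.0 and 6.74 CPM in GFP livers. Cre 4 lay just inside the GFP range and below every Flpo library. Gyg fell in Cre against GFP (-0.70, SE 0.17, edgeR's adjusted p = 0.0166) and rose in Flpo against Cre (0.63, SE 0.17, adjusted p = 0.0188), the second call being lost without Cre 1 (0.51, adjusted p = 0.0517) or without Cre 3 (0.59, adjusted p = 0.051). The fall of Gyg against GFP did not pass with those 2 groups fitted alone (-0.70, adjusted p = 0.057).

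Gys2, the liver glycogen synthase, had 142, 179 and 216 CPM in Flpo livers, 165, 144, 123, 172 and 219 CPM in Cre livers, and 111, 110.2, 128, 156 and 123 CPM in GFP livers. The 3 groups overlapped, with GFP livers lowest on average. Gys2 did not pass in Cre against GFP (0.39, SE 0.14, edgeR's adjusted p = 0.0934), but did without GFP 4 (0.49, adjusted p = 0.0456) or without Cre 3 (0.48, adjusted p = 0.0412), and its Flpo against GFP log2 fold change was 0.50 (SE 0.14, adjusted p = 0.274). Pygl, the liver glycogen phosphorylase, had 272, 295 and 382 CPM in Flpo livers, 197, 238, 279, 292 and 150.4 CPM in Cre livers, and 347, 298, 358, 265 and 323 CPM in GFP livers. Cre 3 and Cre 4 lay within the GFP range. Pygl did not pass in Cre against GFP (-0.46, SE 0.15, edgeR's adjusted p = 0.0659) or in Flpo against Cre (0.42, SE 0.15, adjusted p = 0.0665), and passed both without Cre 4 (-0.56, adjusted p = 0.0268, and 0.52, adjusted p = 0.0241). Pygl also passed both by DESeq2 (-0.45, adjusted p = 0.0376, and 0.41, adjusted p = 0.0423), with library totals (-0.60, adjusted p = 0.0169, and 0.55, adjusted p = 0.0178) and on the TPM scales.

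Ugp2, which makes the UDP-glucose used by the synthase, had 241, 269 and 346 CPM in Flpo livers, 201, 224, 229, 259 and 137 CPM in Cre livers, and 301, 259, 261, 238 and 265 CPM in GFP livers. The groups overlapped at Cre 4. Ugp2 rose in Flpo against Cre (0.45, SE 0.14, edgeR's adjusted p = 0.0375), a call lost without any one of GFP 2, Cre 1, Cre 2, Cre 3, Cre 5, Flpo 4, Flpo 5 or Flpo 6 (adjusted p 0.0514 to 0.0976). Phkg2, the catalytic subunit of phosphorylase kinase in liver, had log2 fold changes of -0.05, -0.17 and -0.22 in Cre against GFP, Flpo against Cre and Flpo against GFP, none called.

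Of the 3 members that bring protein phosphatase to glycogen, only Ppp1r3b was called in any of the 3 comparisons. Other such subunits were in the list of other enzymes described below, and Ppp1r3e was among its called genes. Ppp1r3b, the main liver form, had 221, 302 and 414 CPM in Flpo livers, 75.3, 124, 137, 153 and 105 CPM in Cre livers, and 149, 132, 249, 261 and 379.5 CPM in GFP livers. All Flpo libraries lay above all Cre libraries, while GFP 1 and GFP 2 lay inside the Cre range. Ppp1r3b rose 2.65-fold in Flpo against Cre (1.41, SE 0.26, edgeR's adjusted p = 0.00168) and fell in Cre against GFP (-0.98, SE 0.26, edgeR's adjusted p = 0.027). The fall of Ppp1r3b against GFP did not pass without GFP 3 (-0.95, adjusted p = 0.0515), GFP 4 (-0.92, adjusted p = 0.0575), GFP 5 (-0.73, adjusted p = 0.0722), Cre 1 (-0.84, adjusted p = 0.0594) or Cre 5 (-0.94, adjusted p = 0.0613), nor with the Cre and GFP groups fitted alone (-0.97, adjusted p = 0.0661). In that fit 8 members fell in place of 11, and 2 glycogen members in place of 4.

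Ppp1r3c and Ppp1r3g, the other targeting subunits among the members, spread widely within groups. Ppp1r3c ran from 29.7 to 101 CPM in Flpo livers, 24.1 to 76.2 CPM in Cre livers and 29.9 to 68.7 CPM in GFP livers. Ppp1r3g was the scarcest member, with 3 to 63 estimated counts a library. With the clock score as a covariate, the log2 fold change in Cre against GFP was -0.53 for Gbe1 (SE 0.13, edgeR's adjusted p = 0.0476) and -0.58 for Phka2 (SE 0.13, adjusted p = 0.0323). It was -0.54 for Gyg (SE 0.22, adjusted p = 0.24) and -0.37 for Ppp1r3b (SE 0.29, adjusted p = 0.607).

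Across the 39 members, the levels spanned Gapdh at a mean of 1322 TPM to Ppp1r3g at 0.433 TPM. Ldha, Pck1 and Fbp1 followed Gapdh at 1147, 1000.0 and 840 TPM. Their order differed by group: Pck1 was at 1437 ± 301 TPM in Cre livers (SD, n = 5) and at 653 ± 265 TPM in GFP livers (SD, n = 5), while Fbp1 was at 765 ± 191 TPM in Cre livers and 826 ± 65.7 TPM in GFP livers. In Cre livers Ldha (1119 to 1994 TPM) and Pck1 (1194 to 1904 TPM) did not differ beyond their spread, and the ranges of Gapdh (949 to 1253 TPM) and Fbp1 (591 to 1067 TPM) overlapped. The ratio of Pck1 to Pklr in TPM had a median of 7.46 in Flpo livers (6.86 to 11.4), 34.7 in Cre livers (19.4 to 98.7) and 7.36 in GFP livers (4.30 to 15.2), so the Cre range lay above both others. Pck1 rose and Pklr fell in Cre livers, as given above, so their ratio is not separate evidence.

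**Figure D4:**
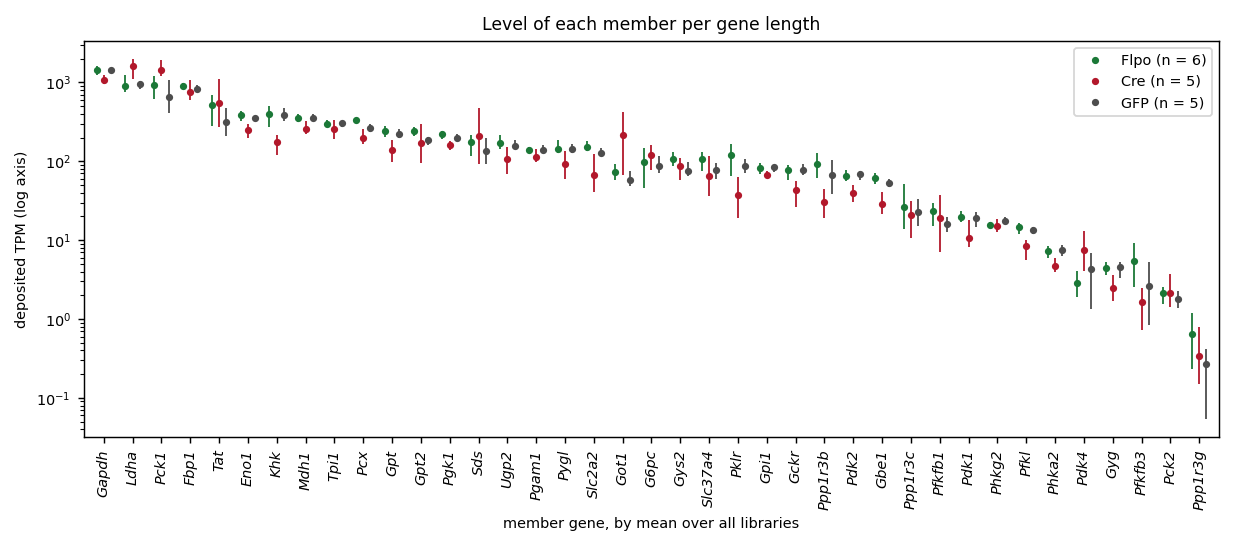
Deposited TPM (logarithmic vertical axis) of the 39 members, ordered by the mean over the 16 libraries; points are group means in Flpo, Cre and GFP livers and lines run from the lowest to the highest library. Levels run from over 1000 TPM for Gapdh to under 1 TPM for Ppp1r3g.

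The Cre livers were the least alike for these genes. The median coefficient of variation over the 39 members was 13.5% in Flpo livers, 25.1% in Cre livers and 13.3% in GFP livers, and the Cre group had the highest of the 3 for 31 members. Cre 5 was the Cre library farthest from the GFP mean for 17 members and Cre 1 for 11, while Cre 4 was the nearest for 15. Of the 14 members called in Cre against GFP, Cre 4 was the nearest for 9 and the farthest for 0. Cre 4 also had the highest clock score of the Cre libraries, -0.594, where the others ran from -5.59 to -3.15; the part of this in the members' values was not tested. Without Cre 4, 5 members rose in Cre against GFP in place of 3. Groups did not overlap in Cre against GFP for 2 members higher in all Cre libraries and 7 lower, where 3.56% of all genes tested were likewise higher and 4.64% lower. In Flpo against Cre they did not overlap in CPM for 10 members higher in all Flpo libraries and 3 lower. Of all genes, 4.52% were likewise higher and 3.32% lower. In TPM the 3 lower members, Pck1, Ldha and Pdk4, overlapped, and so did Mdh1 and Phka2 of the higher members. Mdh1 was at 319 TPM in Cre 4 and at 317 TPM in Flpo 2.

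With the clock score as a covariate, the calls fell to 2 higher and 3 lower members in Cre against GFP, and to 0 in Flpo against Cre. All 14 and 21 called members kept their sign in that fit and had a larger SE. The median size of their log2 fold changes in Cre against GFP was 0.55 with the covariate and 0.75 without it, with a median SE of 0.20 and 0.17. In Flpo against Cre the median size was 0.41 and 0.73, with a median SE of 0.29 and 0.15. Pck1 gave -1.71 (SE 0.45, edgeR's adjusted p = 0.29) and Khk 1.09 (SE 0.37, adjusted p = 0.545) in Flpo against Cre with the covariate, both larger in size than without it. The 5 that stayed past the threshold in Cre against GFP were Pck1 (1.85, adjusted p = 0.00967), Ldha (0.79, adjusted p = 0.0346), Khk (-1.03), Gbe1 (-0.53) and Phka2 (-0.58), by edgeR's quasi-likelihood test. Over all genes the same fit called 233 genes in Cre against GFP and 5 in Flpo against Cre. These 5 members were called in Cre against GFP under all 25 alternatives tried. Among the 18 clock genes, 4 fell in Cre against GFP and 10 rose and 4 fell in Flpo against Cre.

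**Figure D5:**
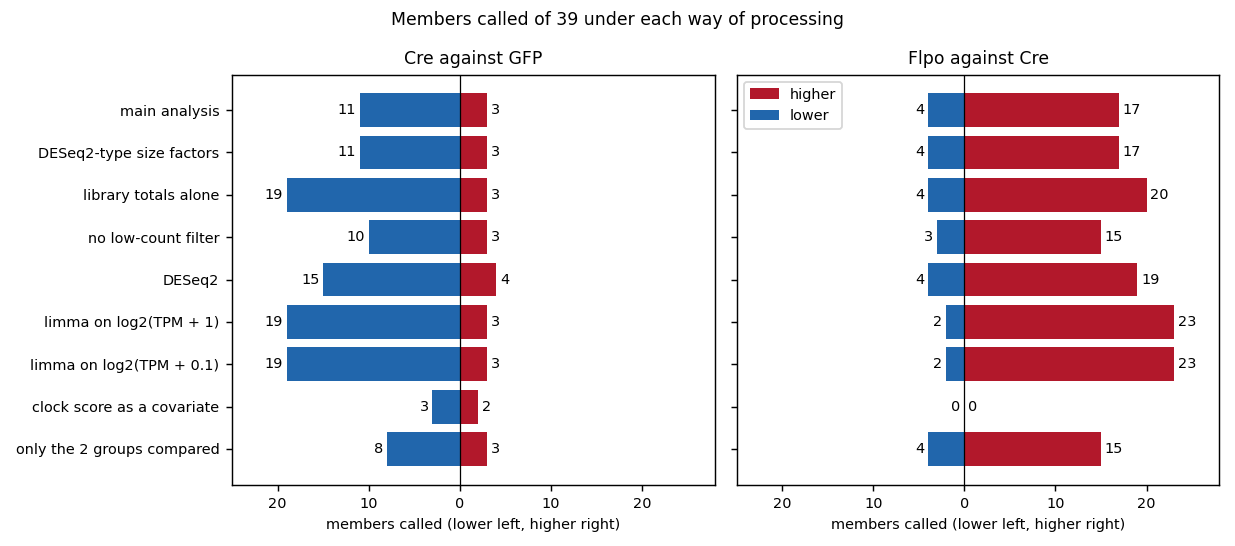
Number of the 39 members called lower (blue, left of 0) and higher (red, right of 0) in Cre against GFP and in Flpo against Cre under the main analysis and 8 other ways of processing. The higher calls in Cre against GFP are 2 to 4 throughout; the lower calls range from 3 with the clock score to 19 with library totals or TPM.

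In Flpo against GFP 0 of the 39 members passed by edgeR. The median log2 fold change was 0.12, beside -0.01 over all genes, and 25 members were positive and 14 negative. All 6 committed-step members were positive, from 0.12 for Fbp1 to 0.46 for Pck1 (SE 0.24, edgeR's adjusted p = 0.555). The 4 members at an unadjusted p under 0.05 were Pcx (0.32), Gys2 (0.50), Pfkfb3 (0.99) and Ppp1r3g (1.25), with edgeR's adjusted p of 0.296, 0.274, 0.506 and 0.452. Pcx alone of the 39 had all Flpo libraries above all GFP libraries, as had 0.676% of all genes tested.

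Outside the members, a list of 74 other enzymes and transporters of these pathways held 67 genes that could be tested, of which 2 rose and 9 fell in Cre against GFP, where 3.97% of all genes were called higher and 5.58% lower. In Flpo against Cre 13 rose and 3 fell, beside 7.45% and 6.26% of all genes, and in Flpo against GFP 0 were called by edgeR. Slc25a10, the mitochondrial dicarboxylate carrier, averaged 381 ± 38.4 CPM in Flpo livers (SD, n = 6), 215 ± 37.8 CPM in Cre livers (n = 5) and 381 ± 10.6 CPM in GFP livers (n = 5), and fell by 0.83 on the log2 scale in Cre against GFP (edgeR's adjusted p = 0.000125). Epm2a, the glycogen phosphatase laforin, fell by 0.87 in Cre against GFP (adjusted p = 0.00381), and Slc16a7, a monocarboxylate transporter, by 0.97 (adjusted p = 0.00468). Pdha1, a subunit of pyruvate dehydrogenase, fell by 0.36 (adjusted p = 0.009), and Slc2a9, a urate and hexose transporter, by 0.55 (adjusted p = 0.0147). In Flpo against Cre, Slc25a10 rose by 0.83 (adjusted p = 6.49e-05), Slc16a7 by 1.15 (adjusted p = 0.000787) and Pdha1 by 0.46 (adjusted p = 0.000858). Ldhd, D-lactate dehydrogenase, rose by 0.60 in Flpo against Cre (adjusted p = 0.00024). Slc16a1, a lactate and pyruvate transporter, had the opposite direction, fell by 1.31 in Flpo against Cre (adjusted p = 0.000356), and averaged 40.2 ± 10.2 CPM in Flpo livers, 99.9 ± 18.8 CPM in Cre livers and 56.4 ± 16.9 CPM in GFP livers.

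Of 47 regulators of these pathways, 46 were tested. Of these, 2 rose and 0 fell in Cre against GFP, and 2 rose and 7 fell in Flpo against Cre, where 9.55% and 13.7% of all genes were called in either direction. In Flpo against GFP 0 were called by edgeR. Irs2, an adaptor of the insulin receptor that is induced in fasting liver, averaged 9.69 ± 2.65 CPM in Flpo livers (SD, n = 6), 29.6 ± 8.49 CPM in Cre livers (n = 5) and 9.57 ± 4.48 CPM in GFP livers (n = 5). Irs2 rose by 1.63 on the log2 scale in Cre against GFP (edgeR's adjusted p = 0.00204) and fell by 1.61 in Flpo against Cre (adjusted p = 0.000952). Sik1, a kinase induced by cyclic AMP, rose by 1.05 in Cre against GFP (adjusted p = 0.0276). In Flpo against Cre, Prkar1a, the regulatory subunit of protein kinase A, fell by 0.39 (adjusted p = 0.00755) and Stat3, a cytokine-activated factor, fell by 0.43 (adjusted p = 0.0208). Foxo1 and Foxo3, forkhead factors restrained by insulin, rose by 0.73 (adjusted p = 0.00989) and 0.48 (adjusted p = 0.0239). Nr1d1, a clock repressor that is also in the clock score, fell by 1.23 (adjusted p = 0.00896).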

How the data were processed

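Poly(A)-selected liver RNA was sequenced in 16 libraries (6 Flpo, 5 Cre, 5 GFP). The authors' deposited table of estimated counts per gene has 31.7% of its values not whole; the deposited TPM table comes with it. Per the submitters' processing notes, cutadapt, STAR and the mm10 build were used; the counting program, annotation and strand setting are not named there. Libraries held 27929393 to 36043322 estimated counts.

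Counts were rounded, genes kept with edgeR's filterByExpr (minimum count 10), scaled by TMM and tested over all 3 groups with edgeR's quasi-likelihood test (edgeR 4.0.16, limma 3.58.1, R 4.3.3), with Benjamini-Hochberg adjustment over 13905 genes and a threshold of 0.05. Alternatives were DESeq2 1.42.0 and its type of size factors, library totals, no filter, limma on log2(TPM + 1) and log2(TPM + 0.1), a clock score, a replicate block (without Flpo 6), the 2 groups alone, and each library left out. The scripts were tested on simulated data. CPM use TMM-adjusted totals. The members and lists were chosen with earlier results of these data known. Library values are given for members called in at least 1 comparison and for Pck1, G6pc, Fbp1, Pcx, Gckr, Pklr, Gys2, Pygl and Pdk4; of each other list, up to 6 called genes a comparison with the smallest adjusted p are named, except that 2 of them are not reported here. Promoter motifs were searched on both strands in the 250 bases before RefSeq starts (GRCm38.p6), with 1 motif added after reading the Pklr sequence.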

Additional observations from a re-analysis of the deposited data

Results flagged for a closer look

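In 4 cases a Cre library stood apart from the other 4 of its group, out of 117 sets of member and group examined; chance alone gives about 1 in 20 such sets. Gckr was at 47.6 CPM in Cre 5, with the next lowest Cre library at 77.2 CPM and the highest at 87.7 CPM. Pgam1, phosphoglycerate mutase, was at 209.9 CPM in Cre 5, with the other Cre libraries between 154 and 157 CPM. Pdk1 was at 59.7 CPM in Cre 4, with the others between 31.2 and 37.5 CPM. Ppp1r3g was at 1.69 CPM in Cre 5, with the others between 0.323 and 0.680 CPM.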

How the results depend on the processing

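No call changed direction under the 25 alternatives among the 25 members given by library. In Cre against GFP, 5 of 14 called members stayed past the threshold in all of them, and in Flpo against Cre 0 of 21 did: with the clock score none of the 21 passed, though all kept their sign, and the median SE was 0.29 against 0.15. The 11 members lower in Cre against GFP became 19 with library totals, 19 with log2(TPM + 1), 19 with log2(TPM + 0.1) and 3 with the clock score, and were 8 with the 2 groups alone. The 4 lower in Flpo against Cre became 2, 2 and 0 on the same TPM scales and with the clock score, and the 17 higher became 0 with the clock score. Over all genes, the 1328 calls in Cre against GFP became 2104 and 2172 on the TPM scales, 233 with the clock score and 834 with the 2 groups alone, and the 1906 in Flpo against Cre became 5 with the clock score. The 4 in Flpo against GFP became 70 by DESeq2, 0 with the replicate block, 0 with the clock score and 1 with the 2 groups alone. Leaving out single libraries gave 960 to 1462, 1454 to 2189 and 0 to 15 genes in Cre against GFP, Flpo against Cre and Flpo against GFP. It gave 3 to 5 members higher in Cre against GFP (5 without Cre 4) and 9 to 13 lower, and 13 to 18 higher and 3 to 4 lower in Flpo against Cre. With the replicate block, 3 members were higher and 10 lower in Cre against GFP, and 13 higher and 3 lower in Flpo against Cre. The labels do not say that the replicate numbers pair the samples. Same-numbered libraries correlated in their deviations from the group means by -0.156 to 0.117, with 1 of 15 pairs over 0.1. Differently numbered libraries were not compared in this way, so these values cannot decide whether the samples are paired. Depth limits Ppp1r3g most, at 3 to 63 estimated counts a library.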

Other observations

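Ratios between paired members differed in spread among the groups. Fbp1 over Pfkl, the enzymes that oppose each other at fructose-6-phosphate, had a median TPM ratio of 60.6 in Flpo livers (58.9 to 71.5), 73.8 in Cre livers (71.3 to 149) and 62.8 in GFP livers (52.0 to 75.5). Gys2 over Pygl, the glycogen synthase against the phosphorylase, had a median of 0.794 in Flpo livers (0.564 to 0.840), 0.781 in Cre livers (0.570 to 1.87) and 0.477 in GFP livers (0.412 to 0.761). Ppp1r3b over Ppp1r3c had a median of 4.11 in Flpo livers (2.49 to 4.52), 1.32 in Cre livers (0.728 to 3.84) and 3.03 in GFP livers (1.16 to 6.39). The sum of 7 periportal hepatocyte markers reached 14416 CPM in 1 Cre library and was 4290 CPM in another, against 4675 to 6883 CPM in GFP livers, and 0 of the 7 were called in Cre against GFP.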
